A study of Rattus norvegicus with 12 samples.

Results

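The genes described here are Rgs6, Rgs7, Rgs9 and Gnb5, which encode 3 regulators of G protein signalling of the R7 family and their obligate partner, the type 5 G protein beta subunit. They belong to a list of 6 genes set by name. Rgs11, the other R7 regulator, and Rgs7bp, a membrane anchor of the complex, were not found under their symbols and were not analysed here. The 4 genes found are among 41596 genes with a level in the files, of which 24540 averaged 0.5 TPM or more and were tested. TPM scales read depth per transcript length to a fixed total in each library.

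The libraries are polyA RNA from the periaqueductal grey, a midbrain region that controls descending pain pathways, of male Sprague Dawley rats. In 6 animals the sire had received saline and in the other 6 the sire had received morphine. The labels state neither the sires' dose nor the litters nor the age of the animals, and the 12 animals are treated as independent. The libraries held 4.39 to 6.03 gigabases (median 5.15). In estimated reads of 135 bases per library, Gnb5 had 2901 to 3770, Rgs7 1806 to 2876, Rgs6 1189 to 1889 and Rgs9 282 to 594. The error from counting alone, relative to the level, is thus largest for Rgs9.

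R7 regulators speed up the hydrolysis of GTP by Gi/o alpha subunits and so shorten the signal that a Gi/o-coupled receptor, such as the mu opioid receptor, sends to potassium channels, calcium channels and adenylyl cyclase. Each R7 protein is stable only as a dimer with the Gnb5 product, which binds the G gamma-like domain of the regulator in place of a G gamma subunit. Anchors such as the Rgs7bp and Gpr158 products hold the dimers at the membrane. Rgs9 is known from photoreceptors, where a short form ends the light response, and from the striatum, where a long form acts on dopamine and opioid signalling.

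All positions are those of the files on build Rnor_6.0. Gnb5 lies on the plus strand of chromosome 8 (82257683 to 82288054), with 1 annotated and 2 assembled transcripts. Rgs7 lies on the minus strand of chromosome 13 (93095200 to 93535843), with 1 annotated and 5 assembled transcripts. Rgs6 lies on the plus strand of chromosome 6 (106308916 to 106602139), with 2 annotated and 2 assembled transcripts. Rgs9 lies on the minus strand of chromosome 10 (97509971 to 97582188) and has a single annotated transcript of 19 exons. Assembled transcripts of low level on the opposite strand overlap Rgs7 and Rgs9. The labels do not state whether the reads kept their strand, so reads from these cannot be told apart.

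The gene structures show the family relation. In the transcript with the most exons of Rgs6 (16 exons) and the leading transcript of Rgs7 (18 exons), 13 consecutive exons, 1184 bases in all, have the same lengths in the same order. They are exons 3 to 15 of Rgs6 and exons 4 to 16 of Rgs7. The longest such run of Rgs7 with Rgs9 was 4 exons (307 bases) and that of Rgs6 with Rgs9 was 3 exons (210 bases). Gnb5 shared no run longer than 1 exon with any of the 3.

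The sequences before the transcription starts of Gnb5 and Rgs6 are shown because of differences between libraries, described below. These were in the depth of the first exon of Gnb5 and in the 5′ model that held the reads of Rgs6. They are the 250 bases before the start in RefSeq's annotation of build GRCr8, which is not the build of the files. Which first exon of the files each window precedes was not tested. The Rgs6 transcripts of the files start at 106308916, 106309307, 106496992 or 106497125. Gnb5 is chr8:84956379-84956628 on the plus strand and Rgs6 is chr6:107996245-107996494 on the plus strand. Capitals mark the letters GGGCGG of a GC box, read on either strand.
Gnb5: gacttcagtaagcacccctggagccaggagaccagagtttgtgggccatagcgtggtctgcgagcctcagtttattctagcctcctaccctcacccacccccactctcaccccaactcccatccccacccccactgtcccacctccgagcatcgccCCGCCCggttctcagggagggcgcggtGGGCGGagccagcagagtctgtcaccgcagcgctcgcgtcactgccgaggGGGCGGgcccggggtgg
Rgs6: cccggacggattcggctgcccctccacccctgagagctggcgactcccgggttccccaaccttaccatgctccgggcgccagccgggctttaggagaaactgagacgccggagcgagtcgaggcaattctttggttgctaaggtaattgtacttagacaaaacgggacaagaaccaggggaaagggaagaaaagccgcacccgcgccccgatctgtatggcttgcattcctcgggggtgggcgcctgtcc
Gnb5 held 3 GC boxes and a GC content of 67.6%, and Rgs6 held 0 and 61.2%. The same window of Rgs7 held 1 GC box at 77.2% GC, and that of Rgs9 held 1 at 65.6%. Of 33469 windows of this length over all RefSeq starts, 30.5% held a GC box, and their median GC content was 51.2%. None of the 4 genes held TATAAA, which 12.9% of all windows do, or the cyclic AMP response element TGACGTCA (1.59%). An E-box, CACGTG, was present in Rgs7 alone of the 4 (5.59% of all windows). These are matches of letters on either strand and were not tested as binding sites.

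Gnb5 and Rgs7 were the most abundant of the 4 transcripts in this tissue, followed by Rgs6 and Rgs9. Over the 12 libraries the summed TPM was 52.5 ± 5.28 for Gnb5, 50.2 ± 6.72 for Rgs7, 20.8 ± 4.93 for Rgs6 and 11.8 ± 1.76 for Rgs9 (SD, n = 12). These means stood above 85.8%, 85.1%, 69.7% and 58.8% of the tested genes. The ranges of Gnb5 and Rgs7 overlapped, with Gnb5 the higher in 9 of 12 libraries. Rgs7 was above Rgs6 in 12 of 12 libraries and Rgs6 above Rgs9 in 12 of 12, by 1.65-fold to 4.36-fold and by 1.22-fold to 2.39-fold.

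**Figure D1:**
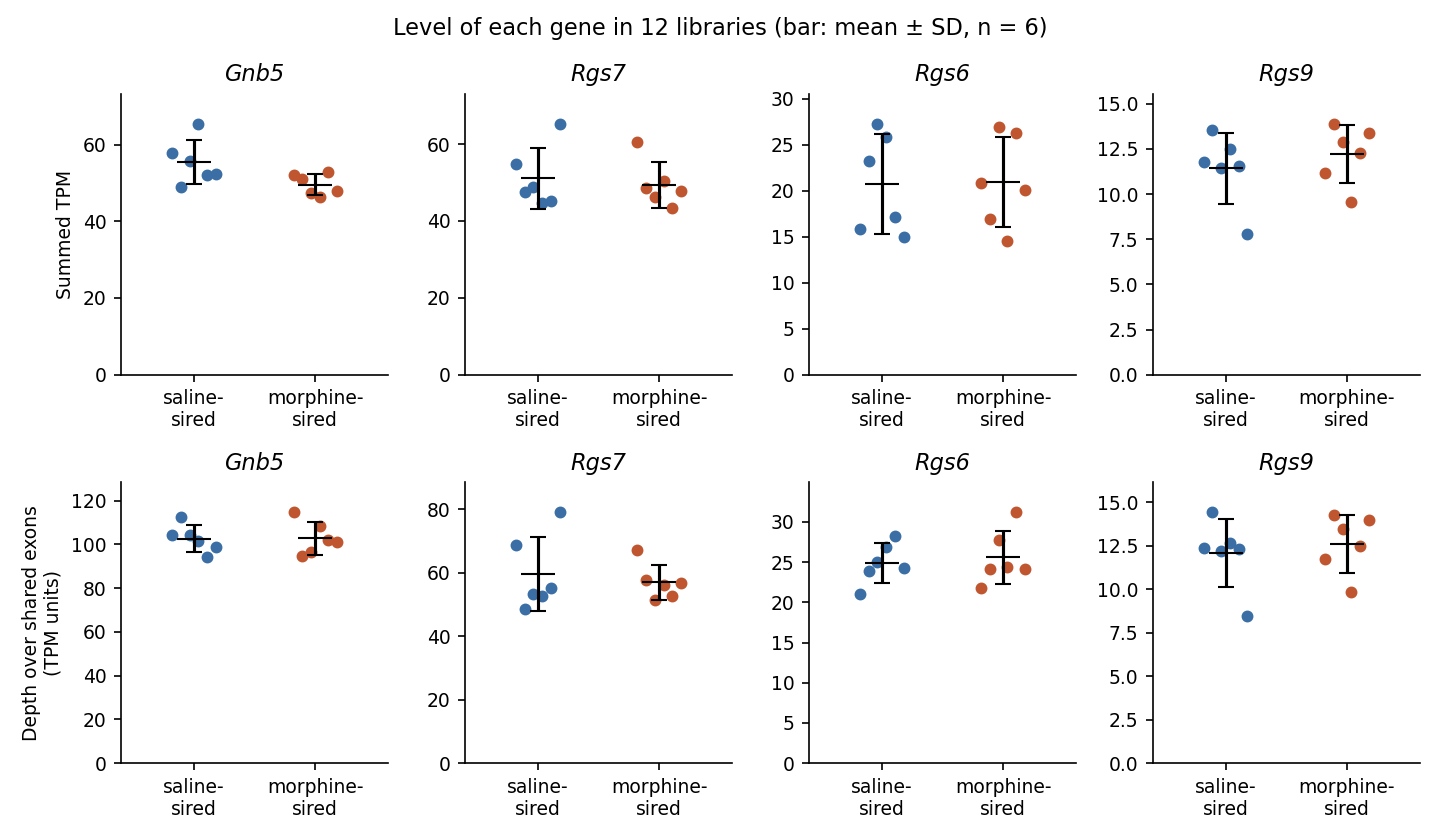
Level of Gnb5, Rgs7, Rgs6 and Rgs9 in the 12 libraries (points), as TPM summed over a gene's transcripts (upper row) and as read depth over the exons that its transcripts share, in TPM units (lower row). Bars are the group mean ± SD with n = 6. The groups overlap in each of the 8 panels, and the Gnb5 means are 55.4 and 49.6 in the upper row and 102.6 and 102.8 in the lower row.

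The comparison of the groups asked whether the sire's treatment goes with the level of these genes in the offspring. None of the 4 genes passed limma's test on log2(TPM + 1) after Benjamini-Hochberg adjustment over the 24540 genes, where 0% of all genes did (0 genes). At an unadjusted p under 0.05, 3.22% of all genes did (790 genes), and 1 of the 4 members, Gnb5.

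Gnb5 had a lowest, median and highest summed TPM of 49.0, 54.1 and 65.4 in saline-sired and of 46.4, 49.4 and 52.9 in morphine-sired animals. The highest value was that of saline-sired 4, and the groups overlapped. The means were 55.4 ± 5.81 and 49.6 ± 2.70 (SD, n = 6 each), a log2 difference of -0.15 ± 0.07 (± standard error, the morphine-sired value minus the saline-sired value). The 95% interval ran from -0.30 to -0.01, with limma's unadjusted p of 0.0429 and adjusted p of 0.9998. The share of all genes with an unadjusted p under 0.05 and a lower value in morphine-sired animals was 1.72%, and with a higher value 1.5%. The unadjusted p was under 0.05 in 11 of 22 alternatives. The difference was -0.10 ± 0.06 without saline-sired 4 (limma's unadjusted p 0.0945) and -0.09 ± 0.05 in limma-voom on estimated reads (0.101). It was -0.25 ± 0.08 with the neuron, oligodendrocyte and serotonergic marker scores as further terms in limma (0.013). In that setting 7.46% of all genes had an unadjusted p under 0.05. Without saline-sired 2 and morphine-sired 2 the difference was -0.19 ± 0.07 (limma's unadjusted p 0.0196), where 8.88% of all genes were under 0.05. From annotated transcripts alone the difference was -0.61 ± 0.58 (limma's unadjusted p 0.315), where the single annotated transcript was at 0 in 10 of 12 libraries. In none of the 4 genes were the groups free of overlap, beside 0.0896% of all genes. In bulk tissue, fewer cells of a type and less RNA per cell cannot be told apart.

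Rgs7, a regulator expressed widely in brain, had a lowest, median and highest TPM of 44.6, 48.2 and 65.3 in saline-sired and of 43.3, 48.1 and 60.5 in morphine-sired animals. The medians were nearly equal, and each group held 1 library or more well above the others. The log2 difference was -0.04 ± 0.10, with a 95% interval from -0.26 to 0.18.

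Rgs6 ran from 14.98 to 27.3 with a median of 20.2 in saline-sired and from 14.6 to 26.9 with a median of 20.5 in morphine-sired animals. Its log2 difference was 0.02 ± 0.18 (95% interval -0.38 to 0.42), and its coefficient of variation over the 12 libraries, 23.7%, was the highest of the 4 genes. The median over the 13791 tested genes averaging 5 TPM or more was 12.1%.

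Rgs9 ran from 7.77 to 13.6 with a median of 11.7 in saline-sired and from 9.57 to 13.9 with a median of 12.6 in morphine-sired animals. The lowest value was that of saline-sired 6, with morphine-sired 4 next at 9.57 and the next saline-sired value at 11.4. The log2 difference was 0.09 ± 0.12 (95% interval -0.17 to 0.36).

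The value of Gnb5 depends on how its exons are counted. Its leading transcript, the assembled MSTRG.23951.1, held 95.8% of its TPM, spans 3757 bases in 11 exons and ran from 42.6 to 57.8 TPM. Read depth along these exons, scaled to TPM units, was uneven, and the first exon differed most between libraries. That exon of 278 bases (chromosome 8, 82257683 to 82257960) had a depth of 44.8 to 95.4 in 7 libraries and of 0.0650 to 4.201 in the other 5. The 5 libraries were saline-sired 2 and morphine-sired 1, 3, 4 and 6. The second exon (137 bases) had a depth of 99.8 to 134.0 in all 12, so the first exon stood at 41.4% to 89.9% of the second in the 7 libraries and at 0.0536% to 3.55% in the 5.

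**Figure D2:**
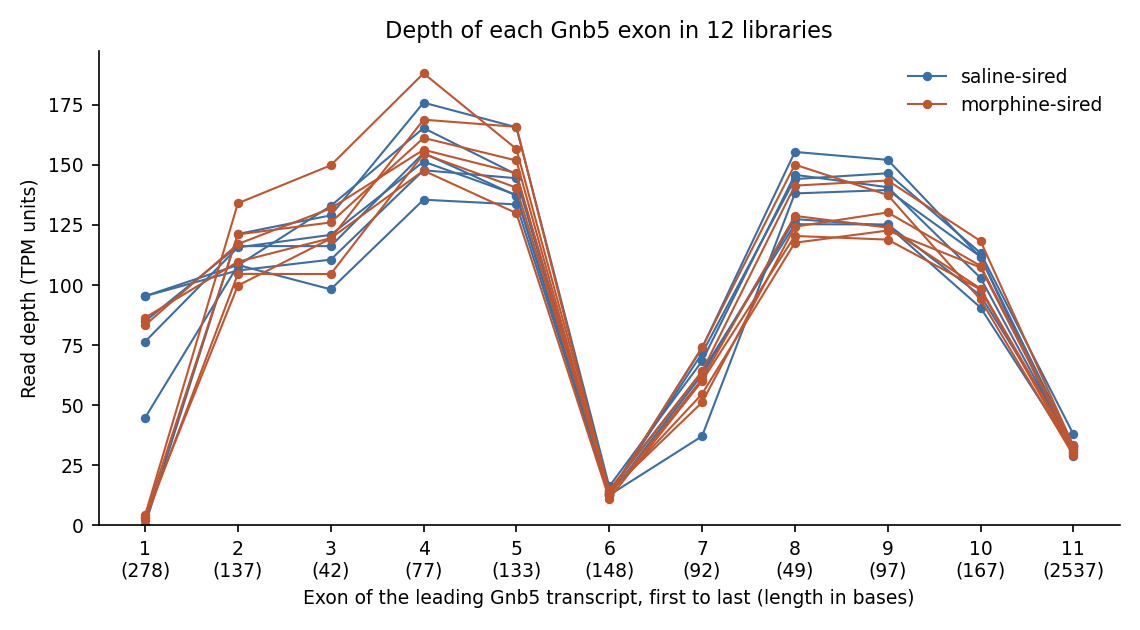
Read depth in TPM units of each exon of the leading Gnb5 transcript, in transcript order with the exon length in bases below it, 1 line per library. The first exon lies between 0.0650 and 4.201 in 5 libraries and between 44.8 and 95.4 in the other 7. The 44.8, of saline-sired 4, adds the depths of 2 overlapping first exons, of 278 and 112 bases. Exon 7 lies at 37.1 in saline-sired 6 and between 51.1 and 74.0 in the other 11.

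Summed TPM was 46.4 to 51.9 in the 5 libraries with a depth near 0 over the first exon and 51.0 to 65.4 in the other 7. With the first exon left out, the mean depth over the remaining 3479 bases of the transcript was 51.6 ± 3.19 in saline-sired and 50.9 ± 2.55 in morphine-sired animals (SD, n = 6 each). The log2 difference was then -0.02 ± 0.05 (p = 0.693, two-sided exact permutation test). With all 11 exons the same measure gave -0.09 ± 0.05 (p = 0.0844, exact permutation test). For saline-sired 4 this takes the sum of 44.8 over all 278 bases of the first exon, which is too high. Both measures left out depths of 4.11 and 7.25 in that library, of alternative forms of exons 10 and 11. The difference in the depth of the first exon relative to the second was within the spread between libraries (59.8% ± 34.2 and 26.9% ± 37.4, SD, n = 6 each, p = 0.141, two-sided exact permutation test, 0.352 adjusted over 5 exon ratios).

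Over the exons that most transcripts of a gene share, first and last exons left out, Gnb5 had a lowest, median and highest depth of 94.4, 102.9 and 112.4 in saline-sired and of 94.6, 101.5 and 114.7 in morphine-sired animals. The groups covered almost the same range. In limma's fit the log2 difference of this measure was 0.00 ± 0.06 (95% interval -0.12 to 0.13, unadjusted p 0.969). The exon measures were chosen after the depths had been seen.

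The sixth exon of Gnb5 was low in both groups. This exon, of 148 bases (82275983 to 82276130), had a depth of 11.1 to 16.2 beside 129.9 to 165.8 in the fifth exon (133 bases), or 9.42% ± 0.334 in saline-sired and 8.81% ± 0.734 in morphine-sired animals (SD, n = 6 each). The difference of -0.61 percentage points did not pass (p = 0.0974, two-sided exact permutation test, 0.352 adjusted). The last exon, of 2537 bases, had a depth of 28.7 to 37.9.

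The only annotated Gnb5 transcript, ENSRNOT00000075708 (10 exons, 1057 bases), was listed at 0 in 10 of 12 libraries. It stood at 12.8 TPM in saline-sired 4 and at 0.0786 in morphine-sired 6. In saline-sired 4 the assembled MSTRG.23951.2 was also high, at 9.99 TPM against at most 1.503 in the other libraries, and the leading transcript was at its lowest, 42.6. These 3 values make up the high sum of that library. Annotated transcripts alone thus list Gnb5 at no more than 0.0786 TPM in 11 of the 12 libraries.

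Rgs7 showed the same limit of the annotation. Its annotated transcript ENSRNOT00000065041 (16 exons) held 1.91% of the Rgs7 TPM and at most 13.2% in a library, morphine-sired 5. The level was carried by the assembled MSTRG.7447.3, at 13.3 to 28.4 TPM, and MSTRG.7447.6, at 15.95 to 32.1 TPM in 11 libraries and 0 in morphine-sired 5. In that library MSTRG.7447.5 and MSTRG.7447.1 were at 9.13 and 8.64, above their values in the other 11. The gene sum of morphine-sired 5, 43.3, was the lowest of the 12 but close to the next (44.6).

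No difference between the groups in the share of a gene's TPM held by its leading annotated transcript passed its test. For Rgs6 it was 52.1% ± 14.9 in saline-sired and 49.3% ± 12.9 in morphine-sired animals (SD, n = 6 each, p = 0.725, two-sided exact permutation test). For Rgs7 it was 1.33% ± 0.9754 and 2.74% ± 5.18, and for Gnb5 3.26% ± 7.99 and 0.0274% ± 0.0671. The adjusted p over these 3 genes was 1 for each in the exact permutation test. The Gnb5 share was 0 in 10 of 12 libraries and 19.6% in saline-sired 4. With a single large value its test could not have passed, so it does not compare the groups. Of the single transcripts of the 4 genes, 14 had a mean of at least 0.5 TPM, and none passed limma's test over 50419 transcripts, where 0.00198% did (1 transcript). At an unadjusted p under 0.05, 3.77% of all transcripts did and 0 of the 14. The largest difference among the 14 by size was that of MSTRG.7447.5 of Rgs7 (0.89 ± 0.54), and the 2 leading Rgs7 transcripts stood at -0.25 ± 0.14 (MSTRG.7447.3) and -0.58 ± 0.74 (MSTRG.7447.6).

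In Rgs6 the sum differed between libraries with different 5′ models. The assembled MSTRG.21034.2, a long form of 16 exons and 6608 bases, was listed at 0 in 7 libraries, and in each of these the short 5′ form MSTRG.21034.1 (3 exons, 1548 bases) stood at 5.19 to 9.05 TPM. In the other 5 libraries the long form stood at 2.15 to 11.1 TPM and the short form at no more than 0.121. The gene sum was 20.1 to 27.3 in the 7 libraries and 14.6 to 17.1 in the other 5. The part of read assignment in this was not tested. Over the shared exons Rgs6 ranged from 21.0 to 31.2, its coefficient of variation was 11.2%, and its log2 difference was 0.03 ± 0.09 (95% interval -0.16 to 0.23). The annotated ENSRNOT00000086136 and ENSRNOT00000058181 had differences of -0.04 ± 0.29 and 0.26 ± 0.41.

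Rgs7 and Rgs9 changed little with the measure. Over the shared exons their log2 differences were -0.05 ± 0.11 (95% interval -0.29 to 0.20) and 0.06 ± 0.12 (95% interval -0.19 to 0.32). On this measure the order of the levels was Gnb5 at 102.7 on average, Rgs7 at 58.3, Rgs6 at 25.2 and Rgs9 at 12.3. Here no neighbours overlapped, and Gnb5 was above Rgs7 in 12 of 12 libraries. The depth of the Gnb5 exons thus stood 1.76-fold above that of Rgs7, where the sums stood 1.04-fold apart. The shared exons leave out the last exon of Gnb5, 2537 of the 3757 bases of its leading transcript, at a depth of 28.7 to 37.9. The measure thus covers unlike parts of the 2 genes, and which measure ranks them better was not tested.

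**Figure D3:**
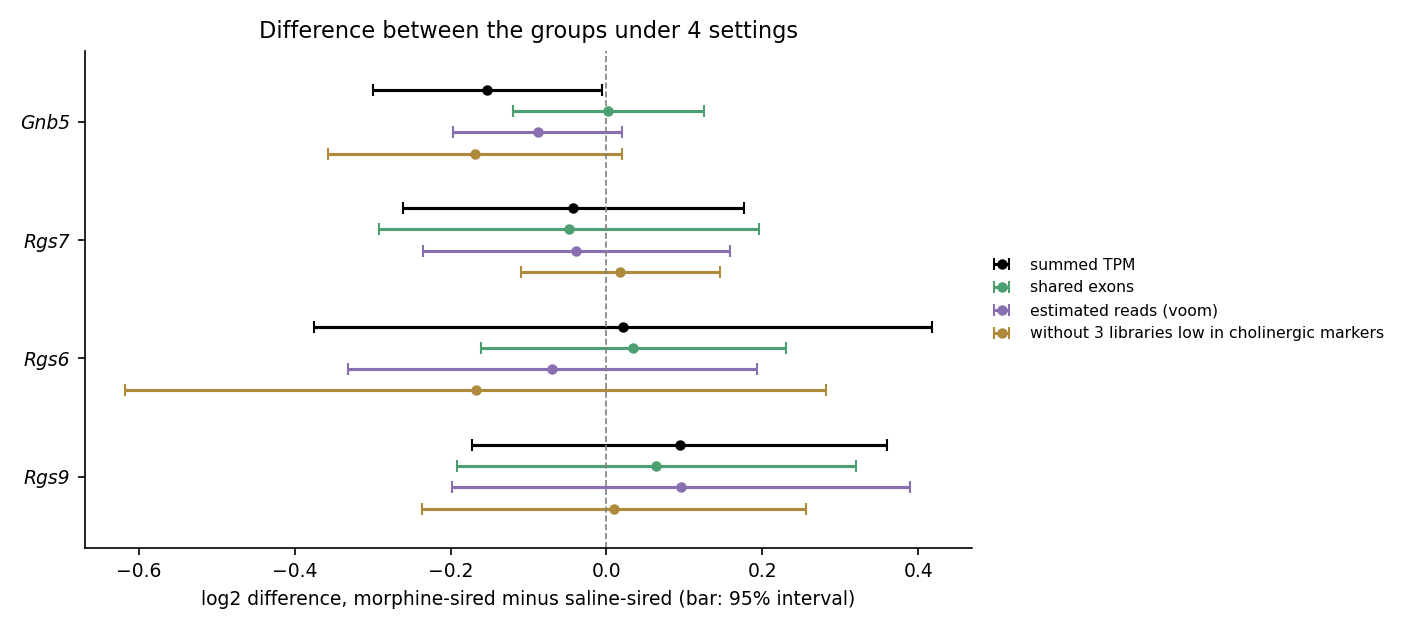
Log2 difference, morphine-sired minus saline-sired, of the 4 genes with its 95% interval, from limma on the summed TPM, on the depth over shared exons, from limma-voom on estimated reads, and without the 3 libraries with the lowest cholinergic markers. The Gnb5 interval from summed TPM, -0.30 to -0.01, is the single one of the 16 that leaves out 0.

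Rgs6 and Rgs7 both carry optional exons near the 3′ end. In Rgs7 an exon of 81 bases (chromosome 13, 93113005 to 93113085) had a depth of 39.5% ± 7.21 of the exon before it (90 bases) in saline-sired and 42.2% ± 11.0 in morphine-sired animals (SD, n = 6 each, p = 0.613, two-sided exact permutation test). A second Rgs7 exon, of 78 bases (93103424 to 93103501), had 11.0% ± 6.38 and 10.2% ± 3.88 of the same exon (n = 6 each, p = 0.794, exact permutation test). In Rgs6 an exon of 54 bases (chromosome 6, 106578509 to 106578562) had 48.3% ± 9.21 and 42.6% ± 14.8 of the exon before it (n = 6 each, p = 0.437, exact permutation test). The lengths 81, 78 and 54 are multiples of 3, so each could be present or absent without a shift of the reading frame if it is coding. Use of these exons spread more between libraries of 1 group than between the groups, and the adjusted p over the 5 exon ratios was 0.729 to 0.794 for these 3 in the exact permutation test.

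**Figure D4:**
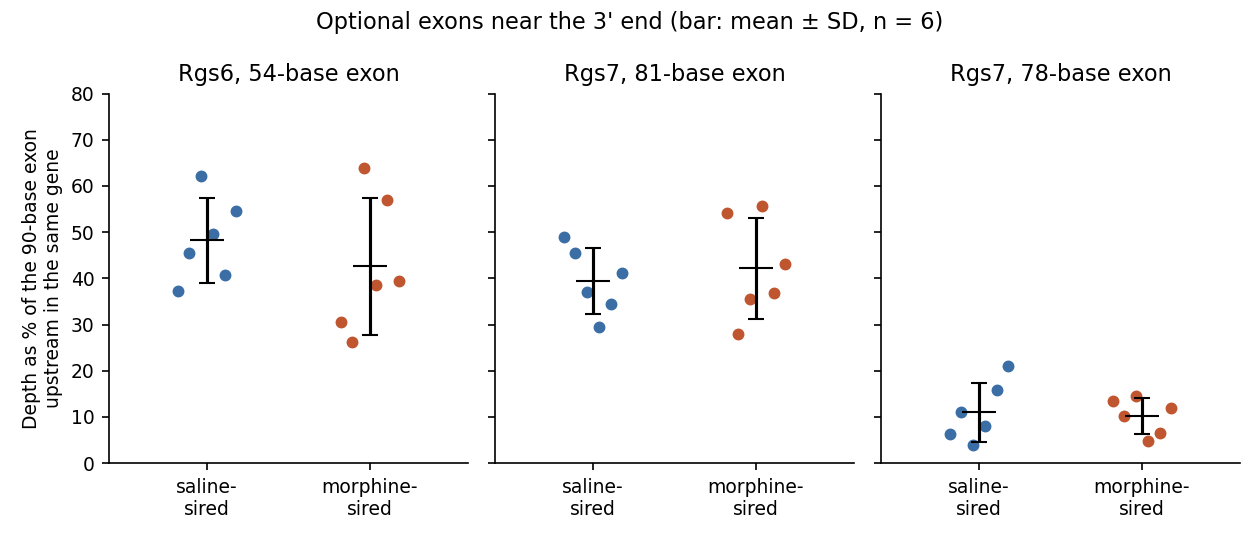
Depth of 3 optional exons of Rgs6 and Rgs7 as a percentage of the depth of the 90-base exon upstream in the same gene, 1 point per library with the group mean ± SD (n = 6). The groups overlap for each exon, and the Rgs7 exon of 78 bases stays at 3.92% to 21.0%.

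The highest Rgs7 levels were those of 3 libraries low in cholinergic markers. The neuron markers Snap25 (1715 to 2090 TPM) and Rbfox3 (62.7 to 101.9) were present in all libraries, and summed neuron markers ran from 4045 to 4548 TPM in saline-sired and from 3931 to 4558 in morphine-sired animals. The cholinergic motor neuron list (Chat, Slc5a7, Slc18a3, Isl1 and Prph) fell into 2 clusters. Its score, the mean of log2(TPM + 1), was 1.79, 1.79 and 2.12 in saline-sired 1, saline-sired 6 and morphine-sired 1, and 3.99 to 5.06 in the other 9. In the same 3 libraries Rgs7 was at 54.9 to 65.3 TPM, above its range of 43.3 to 50.3 in the other 9, and over shared exons at 67.2 to 79.1 against 48.7 to 57.7. These 3 libraries were singled out by earlier results of these data, and no test was made. Without them the Rgs7 difference between the groups was 0.02 ± 0.06. The part of the mix of cells in the Rgs7 level was not tested.

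Across the 12 libraries Rgs7 was correlated with the score of the 2 vesicular glutamate transporters that mark glutamate neurons, Slc17a6 and Slc17a7. With values centred on their group mean, Pearson's r was 0.855 (adjusted p = 0.0155) and Spearman's rho 0.874 (adjusted p = 0.0279, permutation tests, adjusted over 62 correlations). Without the 2 libraries farthest from the median of Rgs7, r was 0.899 (adjusted p = 0.0329, permutation test, n = 10). The adjusted p of r was 0.0577 on values not centred (r = 0.845). It was 0.179 over shared exons (r = 0.764) and 0.19 without the 3 libraries above (r = 0.822, n = 9, permutation test). The 2 genes of the score differed in pattern: saline-sired 2 held the lowest Slc17a6 (78.2 TPM) and the highest Slc17a7 (55.5). In saline-sired 1, saline-sired 6 and morphine-sired 1, Slc17a6 was at 202.2, 206.4 and 203.9 TPM and Slc17a7 at 35.5, 44.1 and 23.5. The correlation of Rgs7 with each gene alone was not computed.

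**Figure D5:**
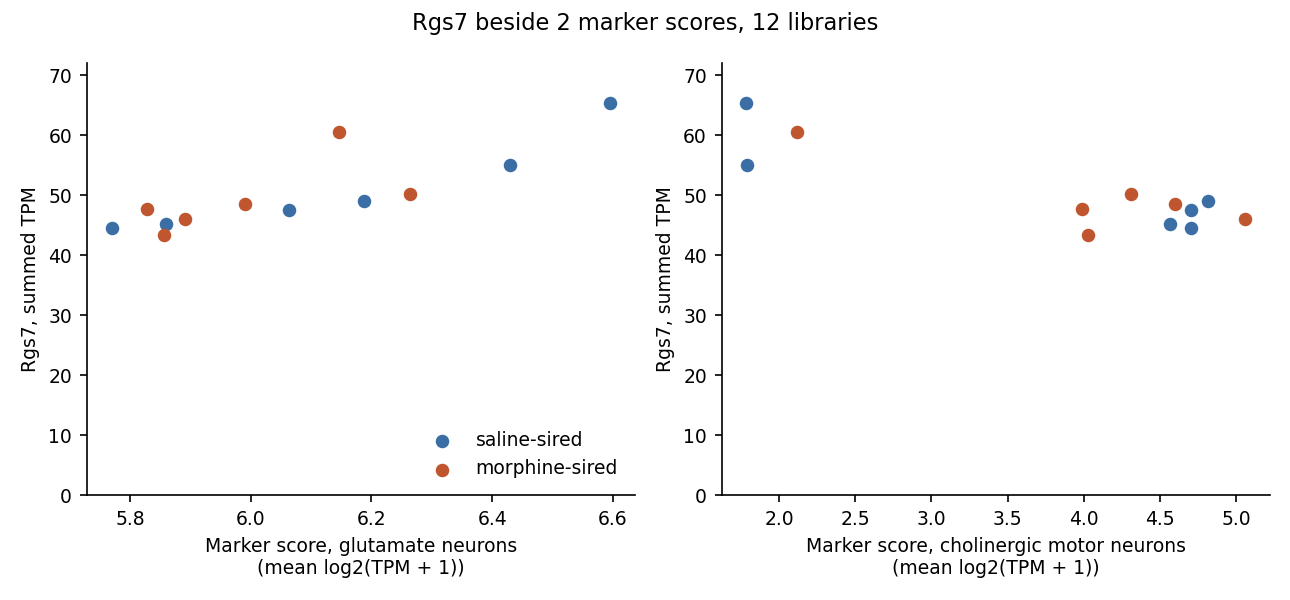
Summed TPM of Rgs7 in the 12 libraries against the score of the glutamate neuron markers (left) and of the cholinergic motor neuron markers (right), each the mean of log2(TPM + 1) over the list. The 3 libraries with cholinergic scores of 1.79 to 2.12 hold the 3 highest Rgs7 values, 54.9 to 65.3.

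No other of the 62 correlations (6 pairs of genes, and 4 genes with 14 marker lists) had an adjusted p of r under 0.05. Rgs9 had an r of 0.736 with the choroid plexus list (Ttr, Folr1, Prlr and Clic6), at an adjusted p of 0.141 for r and 0.0279 for Spearman's rho of 0.853 (permutation tests). Without the 2 libraries farthest from the median of Rgs9 this r was 0.854 (adjusted p 0.0347, permutation test, n = 10). Summed choroid plexus markers ran from 10.5 to 440.9 TPM in saline-sired and from 21.0 to 1787 in morphine-sired animals, and their part in the Rgs9 level was not tested. Rgs6 had an r of 0.694 with the GABA neuron list (adjusted p 0.141, and 0.0451 for rho, permutation tests), which was 0.184 over shared exons. Rgs9 had an r of 0.607 with the forebrain striatal list (adjusted p 0.25, and 0.0451 for rho, permutation tests). For 3 marker lists the libraries fell into 2 clusters, so no correlation is given.

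No pair of the 4 genes was correlated across animals after adjustment. Gnb5 had an r of -0.13 with Rgs7, 0.19 with Rgs9 and 0.316 with Rgs6, and the last of these was -0.497 over shared exons. Rgs7 and Rgs9 had an r of -0.694 (p = 0.0169, adjusted p = 0.209, permutation test), which was -0.282 without the 2 libraries farthest from the median of Rgs7. Rgs6 and Rgs7 had an r of -0.54 (adjusted p = 0.347, permutation test). The smallest adjusted p of r among the 6 pairs was that of Rgs7 with Rgs9.

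The genes with the patterns most like each member were sought among 10733 genes that carry a symbol and average 5 TPM or more, by Pearson's r of centred log2(TPM + 1) over the 12 libraries. They were Tbk1 (0.962), Ppm1l (0.957) and Ptpn3 (0.944) for Rgs7, and Ppm1m (0.906), Akt1 (0.894) and Scn9a (0.879) for Rgs9. For Rgs6 they were Naprt (0.943), Coasy (0.905) and Rpn1 (0.889), and for Gnb5 Arpin (0.863), Usp8 (0.830) and Vapb (0.824). Over shared exons, Ppm1m and Akt1 stayed the first 2 for Rgs9, while all 3 were other genes for each of Rgs6, Rgs7 and Gnb5. For Rgs7 these were Cttnbp2 (0.983), Gbe1 (0.973) and Lztr1 (0.968). The values are a description, with no test.

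Partners of the R7 complex were present, and none passed the test between the groups. The list held 18 genes: membrane anchors, the chaperonin that folds G protein beta subunits with its cofactor, a palmitoyl transferase and the Gi/o alpha subunits. None of the 16 tested passed limma's test after adjustment and 0 had an unadjusted p under 0.05, with a median difference of -0.01 beside 0.00 over all genes. The Rgs7 anchor Gpr158 stood at 32.1 ± 6.30 TPM in saline-sired and 33.3 ± 8.24 in morphine-sired animals. The anchors known from the retina, Gpr179 and Rgs9bp, lay below the filter, at no more than 0.175 and 0.812 TPM in any library. The substrate genes Gnai2 (0.07 ± 0.06) and Gnao1 (-0.04 ± 0.10) and the chaperonin genes Cct5 (0.03 ± 0.05) and Cct7 (0.00 ± 0.04) had log2 differences within their errors or close to them.

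Of the listed Gi/o-coupled receptors and effectors of Gi/o signalling, 21 of 21 genes were tested. In limma's fit 0 passed after adjustment and 0 had an unadjusted p under 0.05. The median difference was 0.02, with a range from -0.25 to 0.20. Oprm1, the mu opioid receptor gene, stood at 12.6 ± 5.26 and 12.4 ± 4.07 TPM, close to the level of Rgs9. The GABA-B receptor genes Gabbr1 (0.04 ± 0.09) and Gabbr2 (0.01 ± 0.17), the potassium channel gene Kcnj9 (0.11 ± 0.20) and the adenylyl cyclase gene Adcy5 (0.02 ± 0.06) did not pass either.

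Among the other RGS genes and the other G beta genes, 16 of 17 were tested and 0 passed after adjustment. One, Rgs5, a small regulator known from pericytes, had an unadjusted p under 0.05 in limma's fit, beside 3.22% of all genes. It stood at 100.2, 111.0 and 125.1 TPM (lowest, median and highest) in saline-sired and at 85.6, 97.5 and 115.5 in morphine-sired animals, overlapping ranges, with a log2 difference of -0.17 ± 0.08 (unadjusted p 0.0492). Without saline-sired 1, saline-sired 6 and morphine-sired 1 it was -0.09 ± 0.09 (limma's unadjusted p 0.313), and the unadjusted p was under 0.05 in 10 of 22 alternatives. The G beta genes Gnb1 and Gnb2 stood at 291.4 and 302.6 TPM on average, above the 52.5 of Gnb5, with differences of -0.04 ± 0.07 and 0.05 ± 0.06. Rgs4 and Rgs8 spread far more between libraries than the R7 genes, from 28.0 to 111.5 and from 26.2 to 98.6 TPM, with differences of -0.11 ± 0.37 and -0.23 ± 0.35. The median difference of the list was -0.04.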

How the data were processed

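PolyA RNA sequencing libraries of 12 rats, 6 saline-sired and 6 morphine-sired by the labels, were analysed from the transcript files that the authors deposited. Per the file headers these were written by StringTie 1.3.6, while HISAT2 2.2.0 and StringTie 2.1.2, with build Rnor_6.0, stand in the submitters' processing notes. Each deposited file gives coverage, FPKM and TPM for 76232 transcripts, 41063 annotated and 35169 assembled. StringTie divides reads between overlapping models, so single transcripts are uncertain. Depth was taken from the ratio of coverage to FPKM, and the read length of 135 bases was inferred from the values. The symbols of transcripts came from the deposited series table, whose log2 values were not used.

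TPM was summed per gene and fitted with limma 3.58.1 in R 4.3.3 on log2(TPM + 1), which understates changes of low genes, for genes averaging 0.5 TPM or more, with the sire's treatment as the single term. Transcripts were fitted alike. Exon depth is the deposited exon coverage scaled to TPM. Single values were compared by two-sided exact permutation and correlations by 100000 resamples, with Benjamini-Hochberg adjustment, in Python 3.11.15 with scipy 1.17.1. The fit was tested on simulated data. The members and lists were chosen with earlier results of these data known. Named were the members, their transcripts, the 3 genes most like each, Oprm1, defining markers, and from each list genes with an unadjusted p under 0.05 and up to 4 by the highest mean; Gpr158, Gpr179 and Rgs9bp were added after their values were seen.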

Additional observations from a re-analysis of the deposited data

Results flagged for a closer look

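Of 52 groups of 6 values (the 4 genes as sums and over shared exons, their transcripts and the 5 exon ratios), 10 held a value whose gap to its nearest neighbour exceeded Dixon's critical share of the group's range. For independent, normally distributed values about 1 in 20 groups would do so by chance. Transcripts of 1 gene share reads and many are listed at 0, so that rate does not apply to them.

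One flag concerned a gene sum. Rgs9 in saline-sired 6 was low, at 7.77 TPM with the next saline-sired value at 11.4 and a morphine-sired value at 9.57; that library also held the highest Rgs7 value. The others were single transcripts. For Gnb5, the annotated ENSRNOT00000075708 stood at 12.8 TPM in saline-sired 4 and MSTRG.23951.2 at 9.99 in the same library, while ENSRNOT00000075708 at 0.0786 in morphine-sired 6 stood out only because the other 5 are listed at 0. For Rgs6, MSTRG.21034.2 stood at 11.1 TPM in saline-sired 1 and at 10.3 in morphine-sired 2, and ENSRNOT00000086136 was low in saline-sired 1, at 4.24. For Rgs7, MSTRG.7447.5 stood at 4.32 TPM in saline-sired 6, and MSTRG.7447.1 at 8.64 and ENSRNOT00000065041 at 5.74 in morphine-sired 5, the library in which MSTRG.7447.6 is listed at 0. Over shared exons Rgs9 in saline-sired 6 was again low, at 8.48 with the next saline-sired value at 12.2, just short of the critical share. The cause of the transcript flags was not tested.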

How the results depend on the processing

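None of the 4 genes and none of their 14 transcripts passed the adjusted threshold under any alternative run. The gene differences kept their sign in 74 of 88 alternatives and the transcript differences in 229 of 248. No paired analysis was possible because the replicate numbers follow the order of deposit and the labels tie no animals of the 2 groups to a shared litter, sire or batch. The exon measures and the correlations without 3 libraries were chosen after seeing the data.

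With each library left out in turn, the log2 difference ran from -0.19 to -0.10 for Gnb5, from -0.060 to 0.11 for Rgs6, from -0.10 to 0.030 for Rgs7 and from -0.0034 to 0.16 for Rgs9 (ENSRNOT00000005076). Over shared exons Gnb5 stood at 0.0022. Without saline-sired 1, saline-sired 6 and morphine-sired 1, Rgs6 stood at -0.17 and Rgs7 at 0.018; with marker scores as terms they stood at -0.22 and 0.056. Limma-voom gave -0.069 for Rgs6, and annotated transcripts alone gave 0.059 for Rgs7.

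Genes passing over the whole table numbered 0, with 0 to 1 when a library was left out (1 without saline-sired 4 or saline-sired 6) and 1 without the 3 libraries. Limma-voom called 0 genes, with 745 at an unadjusted p under 0.05. Transcripts passing numbered 1, with 0 to 2 when a library was left out, 11 without the 3, 2 without saline-sired 2 and morphine-sired 2, and 0 with no filter or after quantile normalization. Saline-sired 2 held the highest score of the cerebellar neuron markers Pcp2, Calb1, Cbln1 and Gabra6 (6.37). Morphine-sired 2 held the highest choroid plexus score (5.12).

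Transcripts changed sign. Without the 3 libraries MSTRG.21034.2 stood at 0.59, ENSRNOT00000058181 at -0.27 and MSTRG.21034.1 at -0.60. Without saline-sired 2 and morphine-sired 2, ENSRNOT00000086136 stood at 0.16. A pseudocount of 0.1 gave -0.20 for MSTRG.7447.1 and -0.11 for ENSRNOT00000065041. Leaving out a library gave -0.82 to 0.18 for MSTRG.21034.2, -0.26 to 0.12 for ENSRNOT00000086136, -0.044 to 0.46 for ENSRNOT00000058181, -0.80 to 0.21 for MSTRG.7447.6, -0.39 to 0.12 for MSTRG.7447.4 and -0.34 to 0.19 for ENSRNOT00000065041.

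Correlations with an adjusted p of r under 0.05 numbered 1, beside 2 without the 2 farthest libraries and 0 on values not centred, over shared exons or without the 3 libraries. Over shared exons r was -0.497 for Rgs6 with Gnb5, 0.019 for Rgs7 with Gnb5 and -0.086 for Rgs9 with Gnb5. On summed TPM, Rgs9 with Gnb5 had an r of 0.19, which was -0.282 without the 2 farthest.

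The mean level was 14.3 TPM for Rgs6, 0.958 for Rgs7 and 1.07 for Gnb5 from annotated transcripts alone, and 58.3 for Rgs7 and 102.7 for Gnb5 over shared exons. The causes of these changes were not tested. Rgs9 had the fewest estimated reads of the 4 genes.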

Other observations

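Rgs7bp was not found under its symbol. In RefSeq's annotation of GRCr8 it lies between Shisal2b and Rnf180. Between these 2 genes the files hold 2 tested loci with more than 1 exon, both on the minus strand of chromosome 2 (Rnor_6.0) and both singled out after their positions and values were seen. AABR07007916.1 (35077504 to 35104963, 5 exons) ran from 38.6 to 67.7 TPM with a median of 43.3 in saline-sired and from 26.99 to 52.0 with a median of 37.7 in morphine-sired animals (log2 difference -0.30 ± 0.16, limma's unadjusted p 0.094). The unnamed locus MSTRG.12846 (35595737 to 35619292, 3 exons) ran from 34.5 to 66.1 with a median of 40.3 and from 27.7 to 43.5 with a median of 39.4 (-0.23 ± 0.17). Over the 12 libraries their levels had an r of 0.875 and a Spearman's rho of 0.839, and an r of 0.791 without the 2 libraries farthest from the median. Because the 2 were picked after their values were seen, these values are a description with no test. How often other pairs of loci reach such an r was not counted. Neither locus carries the symbol, sequences were not compared, and the 2 are not taken as Rgs7bp.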
